A study of Canis lupus familiaris with 28 samples.

Results

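*SMPDL3A* and *ENPP1* encode enzymes that can hydrolyze cyclic GMP-AMP (cGAMP), the cyclic dinucleotide that activates the receptor STING. They are 2 of the 32704 Ensembl genes counted in this series of canine histiocytic sarcoma (HS), and they were picked by symbol, with their levels in these tumors, controls and cell lines already known. Symbols were paired with the identifiers ENSCAFG00000001002 (*SMPDL3A*) and ENSCAFG00000000001 (*ENPP1*). Because those levels led to the choice, tumors against controls and cell lines against the dendritic cell strain are described below without a test. Comparisons among the tumors were not part of the choice and were tested.

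cGAMP is made by the DNA sensor cGAS in the cytosol and signals through STING to TBK1 and interferon genes. ENPP1 is an ectonucleotide pyrophosphatase/phosphodiesterase of the plasma membrane that degrades cGAMP and ATP outside the cell and is known as an inhibitor of mineralization. SMPDL3A is an acid sphingomyelinase-like phosphodiesterase of lysosomes that is also secreted, is induced by liver X receptors in macrophages and likewise degrades cGAMP. The malignant cells of histiocytic sarcoma are related to macrophages and dendritic cells.

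The 18 tumors came from Bernese Mountain Dogs (BMDs), 15 labelled HS and 3 labelled with the hemophagocytic subtype (HHS), and were frozen tissue judged by histopathology to be mostly tumor. By label, 6 were taken from the lung, 4 from the liver, 3 from the thorax, 2 from the spleen, 2 from a limb (leg mass or shoulder) and 1 from a lymph node; the HHS tumors were HS41 (lymph node), HS46 (liver) and HS53 (lung). Controls were the blood of 3 unaffected BMDs and a lung, a spleen and a liver sample of unaffected German Shepherds, 1 library each. The HS cell lines BD and OD were derived from BMDs and PJ from a Rottweiler, and DC3F9 is a strain of dendritic cells differentiated from the blood monocytes of a mongrel dog with GM-CSF and IL-4, in 1 unstimulated library.

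The gene counts of a library totalled 99701394 to 171815073 in tumors, 133524755 to 180801439 in controls and 82007857 to 131518875 in the cell cultures. Levels are given as counts per 1000000 counts of the library (CPM), or as log2 CPM with library sizes scaled by TMM and a prior count of 2, and all SDs are on the log2 scale. The count columns of the tumors and the tissue controls have names that begin with the same prefix, and those of the blood controls with another. The labels do not state what the prefixes mean, and blood and prefix cannot be told apart. The liver control stood apart from the other libraries, with a TMM factor of 0.368 against 0.761 to 1.34 in the rest, and is given separately from the other 5 controls. Of the 6 hepatocyte markers, plasminogen (*PLG*) was at 4615 CPM and arginase 1 (*ARG1*) at 1455 CPM in the liver control, whereas the liver tumors held 0.0438 to 78.2 CPM of *PLG* and 0.635 to 9.08 CPM of *ARG1*. *LYZ*, *CSF2RB*, *NCF4*, *NFAM1*, *DCSTAMP* and *FGD2*, the 6 markers of monocytes, macrophages and dendritic cells, summed to 615 to 7364 CPM in the tumors, 607 to 1132 CPM in the cell lines and 1090.3 CPM in DC3F9. The same sum was 479 CPM in the lung control, 1409 CPM in the spleen control and 9362 to 12921 CPM in blood.

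*SMPDL3A* was abundant in every tumor. Its level ran from 139 CPM in HS51 to 5891 CPM in HS48, with a median of 1011 CPM, a 42.5-fold range. This gene alone held 0.0139% to 0.589% of all counts of a tumor library. On the log2 scale the tumors averaged 9.88 ± 1.55 (SD, n = 18). Among the 208 genes whose mean in the tumors lay within 1 log2 unit of that of *SMPDL3A*, 92.8% varied less between tumors, and their median SD was 0.71.

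The 5 controls held 13.8, 21.2 and 24.6 CPM of *SMPDL3A* in blood, 30.4 CPM in spleen and 42.3 CPM in lung, averaging 4.47 ± 0.43 log2 CPM (SD, n = 5). The liver control held 3.88 CPM, the lowest value of the series. All 18 tumors were above all controls, and the lowest tumor exceeded the highest control by 1.78 log2 units. For comparison, 332 of 19028 genes kept after the filter on low counts (1.74%) were higher in every tumor than in all 5 controls, and 1.21% higher than in all 6; nothing is read from these shares, since *SMPDL3A* was chosen on this contrast. The mean difference was 5.41 log2 units against the 5 controls, 5.59 with the liver control included and 5.65 for the blood controls only. For the spleen and lung controls, which shared the tumors' prefix, it was 5.06. A higher bulk level cannot tell more cells with the transcript from more RNA per cell.

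**Figure D1:**
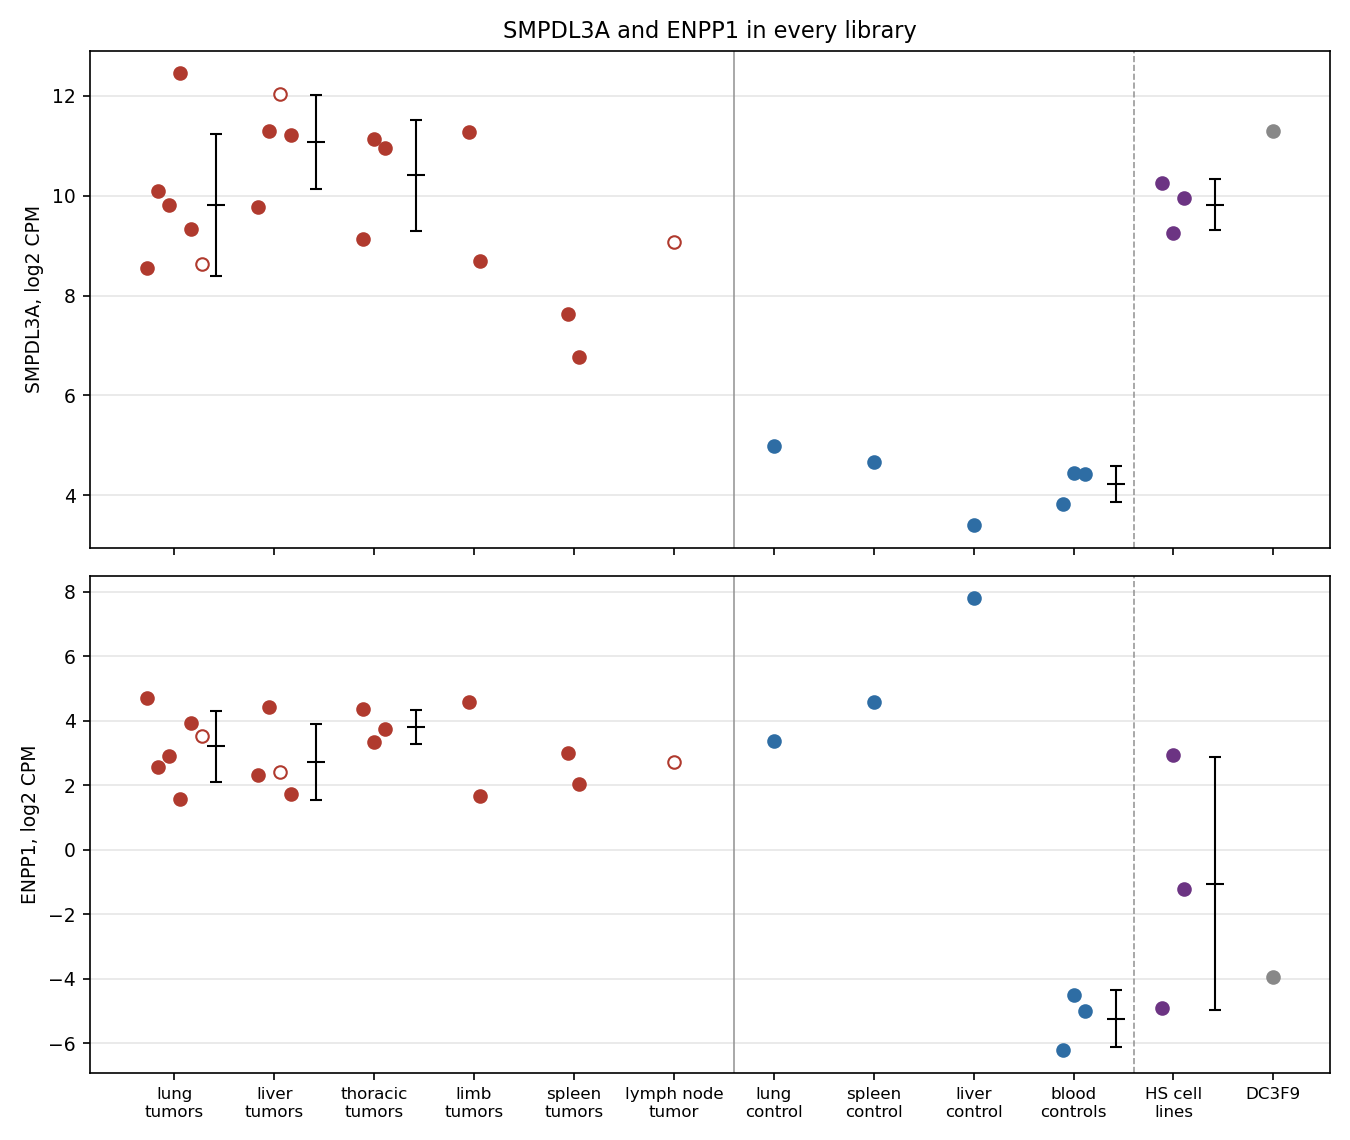
Log2 CPM of *SMPDL3A* (top) and *ENPP1* (bottom), with every library as a point, by site of the tumor, control tissue or cell source; open points are HHS tumors, and bars give the mean ± SD where a group has 3 or more libraries. Libraries to the right of the dashed line were counted in a separate table. *SMPDL3A* separates the tumors from all controls, whereas *ENPP1* in the tumors lies far above blood and below the liver control.

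*SMPDL3A* varied both within and between the sites of the tumors. The 4 liver tumors held 1006 (HS33), 2160 (HS36), 2582 (HS50) and 4288 CPM (HS46), and averaged 11.08 ± 0.95 log2 CPM. The thoracic tumors held 624 (HS4), 1706 (HS14) and 2015 CPM (HS37), and averaged 10.41 ± 1.11 (n = 3). The limb tumors stood apart from each other, at 447 CPM in HS39 (shoulder) and 2770 CPM in HS34 (leg).

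The 6 lung tumors spanned nearly the whole range. HS27, HS53 and HS52 held 299, 446 and 680 CPM, HS47 and HS35 held 1015 and 1345 CPM, and HS48 held 5891 CPM, for a mean of 9.82 ± 1.43 log2 CPM. The lymph node tumor HS41 held 543 CPM. The spleen tumors HS29 and HS51, at 157 and 139 CPM, were the lowest 2 of the 18 tumors; they were singled out after their values were seen, and no test was run on them.

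Ordered by mean log2 CPM, liver tumors came first, followed by thoracic, limb, lung and spleen tumors. The steps from liver to thorax (0.68), thorax to limb (0.42) and limb to lung (0.17) were smaller than the pooled SD of the neighbouring sites (1.01, 1.39 and 1.51). The step from lung to spleen, 2.61 log2 units, exceeded its pooled SD of 1.33.

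Each site with a control of the same organ was also set against that control. Lung tumors held 7.05 to 139 times the CPM of the lung control, liver tumors 259 to 1106 times that of the liver control and spleen tumors 4.55 to 5.16 times that of the spleen control. The TMM scaling lowers the liver ratios, because of the small factor of the liver control: from the log2 CPM they were 83.1 to 397 times, with 11.9 to 177 times in lung and 4.30 to 7.81 times in spleen. With 1 control each these are ratios of libraries and not of groups. Higher levels in every tumor of a site than in its organ control were found for 20.2% of genes in lung, 34.8% in liver and 32% in spleen.

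*ENPP1* was found at a low level in every tumor, from 3.12 CPM (404 counts) in HS48 to 26.5 CPM (3750 counts) in HS34, with a median of 7.45 CPM and an 8.49-fold range. The mean was 3.09 ± 1.04 log2 CPM (SD, n = 18). Its spread was less unusual than that of *SMPDL3A*: of 3306 genes within 1 log2 unit of its mean, 66.6% varied less.

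The controls differed from each other far more than the tumors did. Blood held 0, 4 and 3 counts of *ENPP1*, or 0, 0.030 and 0.020 CPM; a count of 0 in that library allows a level of up to 0.0222 CPM. The lung control held 13.7 CPM, the spleen control 28.4 CPM and the liver control 82.1 CPM. All 18 tumors were thus above the blood controls, as were 10.2% of genes, and all 18 were below the liver control, as were 14.8%.

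The direction of the *ENPP1* difference depended on the controls. Against the 5 controls the tumors were 4.64 log2 units higher in mean log2 CPM, and with the liver control included 3.08 higher. Both means include the near-zero blood values and depend on the prior count: the first was 5.23 with a prior count of 0.5. In CPM the tumors had a median of 7.45 and a mean of 10.8, and the 6 controls a median of 6.87 and a mean of 20.7. Against blood alone the tumors were 8.33 log2 units higher, a figure that depends on the prior count because blood is at the limit of detection. Against the spleen and lung controls the difference was -0.88, the tumors being lower. Of the 18 tumors, 2 exceeded the spleen control and 7 the lung control on the TMM-scaled log2 CPM. In CPM no tumor exceeded the spleen control (28.4 CPM, against at most 26.5 CPM in HS34). On that scale HS37 (13.4 CPM) and HS53 (12.96 CPM), among those 7, were below the lung control (13.7 CPM). In contrast, the *SMPDL3A* difference stayed between 5.06 and 5.65 across the same sets of controls.

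By site, *ENPP1* held 3.12 (HS48), 7.20 (HS35), 8.54 (HS47), 12.96 (HS53), 16.0 (HS52) and 20.5 CPM (HS27) in lung tumors, around the 13.7 CPM of the lung control. Of these 6 tumors, 2 were above the control in CPM and 3 on the TMM-scaled log2 scale. The liver tumors held 3.61 (HS50), 5.40 (HS46), 5.75 (HS33) and 18.5 CPM (HS36), so that the liver control was 4.43 to 22.7 times higher in CPM and 10.3 to 66.7 times higher on the TMM-scaled values. The spleen tumors held 5.18 (HS51) and 6.34 CPM (HS29), and the spleen control was 4.49 to 5.49 times higher in CPM and 2.96 to 5.79 times higher on the TMM-scaled values. Lower levels in all tumors of the site than in its organ control were found for 26.4% of genes in liver and 36.2% in spleen.

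The remaining tumors held 7.69 (HS14), 13.4 (HS37) and 23.0 CPM (HS4) in the thorax, 3.42 (HS39) and 26.5 CPM (HS34) in a limb and 6.67 CPM in the lymph node (HS41). Mean log2 CPM fell in the order thorax (3.81), lung (3.20), limb (3.12), liver (2.73) and spleen (2.52). No step between neighbours in this order exceeded the pooled SD, which was 0.97 to 1.45.

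Within a library, counts of *SMPDL3A* exceeded those of *ENPP1* by 14.6 times (HS27) to 1890 times (HS48) in the tumors, with a median of 118. The same quotient was 3.09 in the lung control, 1.07 in the spleen control and 0.0472 in the liver control. It is a quotient of reads that takes no account of transcript length, so it can be compared between libraries but not read as a difference in level between the genes. The quotient of every tumor was above those of the 3 tissue controls, and in blood control 2, with 4 *ENPP1* counts, it was 708.

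In the cell cultures, counted in a separate table from mRNA libraries, *SMPDL3A* was again abundant. BD held 1348 CPM, PJ 1076 CPM and OD 657 CPM, averaging 9.82 ± 0.51 log2 CPM (SD, n = 3). DC3F9 held 1985 CPM, above all 3 lines. The lines differed from it by -1.48 log2 units on average after TMM scaling, and by -1.01 with plain library totals. The TMM factor was 0.784 in DC3F9 and 1.07 to 1.10 in the lines. All 3 lines were below DC3F9 for 30.2% of genes. With 1 control library no replicate check was possible.

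*ENPP1* differed between the lines by an SD of 3.92 log2 units, which depends in part on the prior count because BD held 2 counts. The largest SD in any site of the tumors was 2.06, from the 2 limb tumors. OD held 1075 counts (8.17 CPM), within the range of the tumors, while PJ held 44 counts (0.452 CPM) and BD 2 counts (0.0170 CPM). DC3F9 held 3 counts (0.0366 CPM). The ratio to DC3F9 was 223 for OD (exact 95% interval 76.3 to 1085), 12.3 for PJ (3.96 to 62.2) and 0.463 for BD (0.0387 to 4.05); these intervals cover counting error only and compare libraries. The level in BD could not be told from that in DC3F9 at this depth.

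The same genes were then compared between groups of tumors with edgeR's quasi-likelihood test over all genes and, for each gene by itself, with a two-sided exact permutation test over tumors. Whether the tumors labelled HHS differed from those labelled HS was asked first. *SMPDL3A* held 446 (HS53), 543 (HS41) and 4288 CPM (HS46) in the HHS tumors, inside the range of the HS tumors, whose median was 1015 CPM. The log2FC was 0.20 ± 0.87 (SE; adjusted p = 0.989, edgeR), and the means of log2 CPM differed by 0.03 (exact permutation p = 0.966). HS46 decided the sign of the fit: without it the log2FC was -1.69 (adjusted p = 0.971, edgeR). *ENPP1* held 5.40, 6.67 and 12.96 CPM in HHS against a median of 7.69 CPM in HS, with a log2FC of -0.58 ± 0.66 (adjusted p = 0.947, edgeR) and an exact permutation p of 0.724. Called genes were 0 of 19853 (0%) in this comparison, with 797 genes at an unadjusted p under 0.05 and 1 call by DESeq2.

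Lung and liver tumors were compared next, 6 against 4. *SMPDL3A* had a median of 848 CPM in lung and 2371 CPM in liver tumors, and 1 of the 6 lung tumors, HS48, exceeded the liver median. The log2FC of lung against liver was -0.71 ± 0.77 (95% interval -2.22 to 0.80; adjusted p = 1.00, edgeR), and the difference in mean log2 CPM was -1.27 (exact permutation p = 0.176). *ENPP1* leaned the other way, with medians of 10.7 CPM in lung and 5.57 CPM in liver, 5 of 6 lung tumors above the liver median, a log2FC of 0.39 ± 0.67 (95% interval -0.93 to 1.70; adjusted p = 1.00, edgeR) and an exact permutation p of 0.529. The groups overlapped for both genes, and both values moved with single liver tumors. The *ENPP1* log2FC was 1.35 without HS36 (adjusted p = 0.821, edgeR) and 0.09 without HS50, and that of *SMPDL3A* was -0.34 without HS46 and -0.13 without the HHS tumors HS46 and HS53. By edgeR 0 of 17671 genes (0%) were called, with 907 at an unadjusted p under 0.05, while DESeq2 called 99.

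In thoracic against lung tumors, 3 against 6, neither gene was called. For *SMPDL3A* the log2FC was 0.09 ± 0.87 (adjusted p = 0.985, edgeR) and the exact permutation p was 0.536. Its sign turned when a thoracic tumor was left out, to -0.27 without HS14 and -0.10 without HS37. For *ENPP1* all 3 thoracic tumors were above the lung median of log2 CPM, the log2FC was 0.35 ± 0.61 (adjusted p = 0.901, edgeR) and the exact permutation p was 0.417. In this comparison 1 of 18272 genes (0.00547%) was called.

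The 2 limb tumors were set against the 12 tumors of lung, liver and spleen. The difference was -0.12 ± 1.15 for *SMPDL3A* (adjusted p = 0.996, edgeR; exact permutation p = 0.868) and 0.53 ± 0.78 for *ENPP1* (adjusted p = 0.962, edgeR; exact permutation p = 0.879). HS34 was high and HS39 low in both genes, so each value hung on 1 tumor: without HS39 the *SMPDL3A* log2FC was 0.66, and without HS34 that of *ENPP1* was -1.61. Called genes were 15 of 20424 (0.0734%). Over the 8 exact tests, every p adjusted by Benjamini-Hochberg was 0.966. The intervals, which reach 1.56 to 2.37 log2 units in at least 1 direction, leave differences of more than 2-fold undecided in each comparison.

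**Figure D2:**
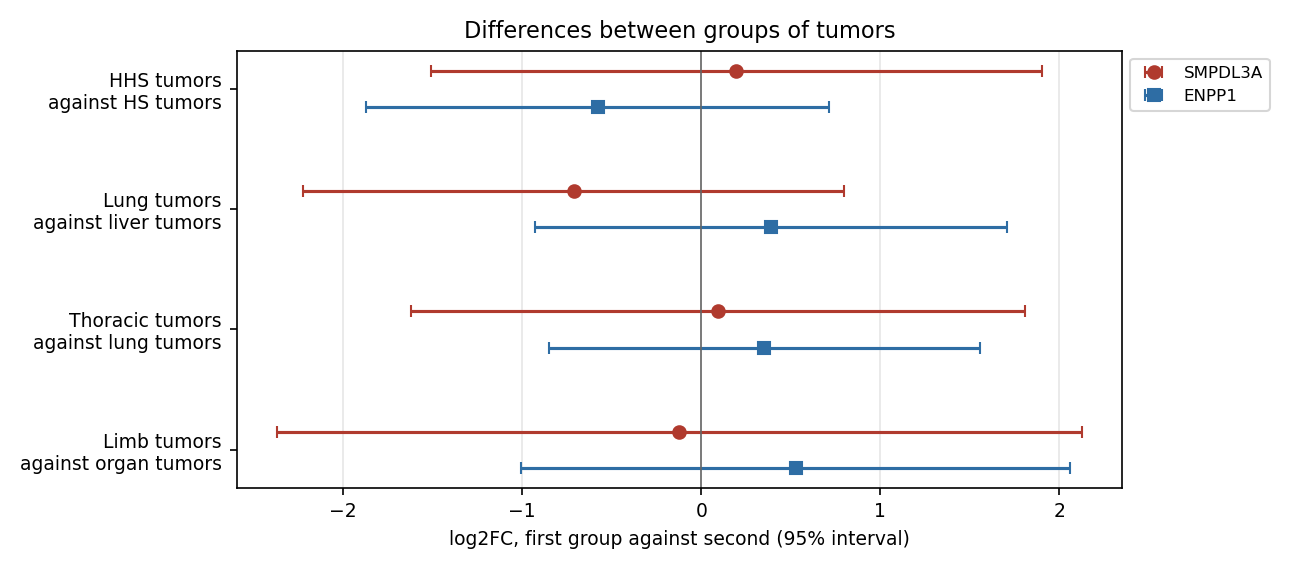
Log2FC of the first group against the second with its approximate 95% interval (edgeR), for *SMPDL3A* (circles) and *ENPP1* (squares) in the 4 comparisons among tumors. All 8 intervals include 0, and their widths run past 2 log2 units.

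Whether tumors high in one enzyme were high or low in the other was tested by correlation. Across the 18 tumors no relation between the log2 CPM of *SMPDL3A* and *ENPP1* was detected, with Pearson's r = -0.03 (permutation p = 0.905) and Spearman's rho = -0.08 (permutation p = 0.747). Without HS48 and HS51, the 2 tumors farthest from the *SMPDL3A* median, r was -0.02. Within the 6 lung tumors, however, the order was nearly opposite: HS48 had the highest *SMPDL3A* and the lowest *ENPP1*, and HS27 the reverse. There r was -0.90 (exact permutation p = 0.0069, 0.028 after Benjamini-Hochberg adjustment over 4 sets of tumors) and rho was -0.94 (exact permutation p = 0.017). The family of 4 sets used for this adjustment was defined after the value for the lung tumors had been seen. Without HS27 and HS48, r over the remaining 4 lung tumors was -0.74, too few for a test. The other sets, the 15 HS tumors and the 14 tumors outside the liver, gave r of 0.037 and 0.046.

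**Figure D3:**
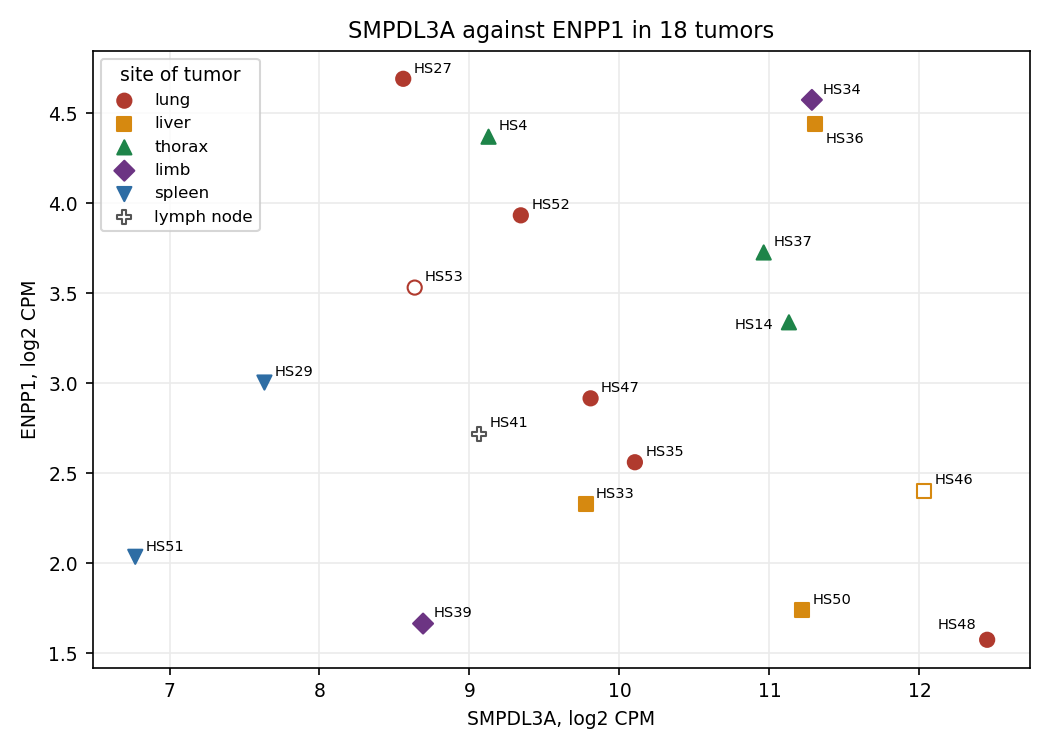
*SMPDL3A* against *ENPP1* in log2 CPM for each of the 18 tumors, marked by site; open symbols are HHS tumors. The 6 lung tumors run from HS27 at the upper left to HS48 at the lower right, and the 18 tumors together show no trend (r = -0.03).

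Genes whose levels followed each enzyme most closely over the 18 tumors were taken from 989 genes with a name. For *SMPDL3A* these were *ARPC3*, a subunit of the Arp2/3 actin-nucleating complex (r = 0.74), the gene of carboxypeptidase M, a membrane peptidase found on differentiating macrophages (0.68), *AP3S1*, of the AP-3 adaptor complex that sorts cargo to lysosomes (0.68), *HSPA9*, a mitochondrial chaperone (0.68), and *HNRNPK*, an RNA-binding protein (0.65). For *ENPP1* they were *CUTA* (0.69), *FBLN1*, the matrix protein fibulin 1 (0.68), *PICK1*, a PDZ-domain scaffold (0.68), *TBC1D22A* (0.68) and *THBS2*, the matrix protein thrombospondin 2 (0.68). These are descriptions over 18 points, picked as the highest of many; the highest r of any of 19027 genes, named or not, was 0.80 for *SMPDL3A* and 0.86 for *ENPP1*.

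Markers of other cell types were set beside both genes in 10 relations over the 18 tumors. *ENPP1* correlated positively with the summed CPM of 4 fibroblast markers (*TCF21*, *COL14A1*, *FBLN1*, *PI16*), with r = 0.59 and rho = 0.52 (permutation p = 0.0081 and 0.029). The adjusted permutation p was 0.059 over the 10, and r was 0.57 without HS29 and HS48. By gene, r with *ENPP1* was 0.68 for *FBLN1*, 0.44 for *PI16*, 0.40 for *COL14A1* and -0.01 for *TCF21*. *FBLN1*, already among the 5 genes picked above, was the largest part of the sum, with tumor medians of 54.7 CPM against 68.9 CPM. *ENPP1* correlated negatively with 5 T and NK cell markers, with r = -0.57 and rho = -0.60 (permutation p = 0.012 and 0.0094). The adjusted permutation p was again 0.059, and r was -0.56 without HS14 and HS50. The HS cell lines held 29.6 to 115 CPM of this sum and the tumors 38.0 to 323 CPM, so it does not measure T and NK cells alone. Its member *TAGAP* had a tumor median of 46.3 CPM, against 89.6 CPM for the sum. In BD, OD and PJ, *TAGAP* was at 5.71, 6.53 and 3.15 log2 CPM. Neither relation passed 0.05 after adjustment. These 10 tests were added after the r values had been seen. The fibroblast sum was 1.41 CPM in HS48, which had the least *ENPP1*, and 478 CPM in HS34, 436 CPM in HS4 and 372 CPM in HS27, which had the most. In the blood controls it was 2.04 to 3.66 CPM, in the spleen control 154 CPM and in the lung control 372 CPM. Other libraries did not follow this order: the liver control, with the most *ENPP1* of all, had a sum of 159 CPM, HS39, with the second-lowest *ENPP1* of the tumors, had 120 CPM, and HS36, at 18.5 CPM of *ENPP1*, had 63.5 CPM. Its part in the *ENPP1* differences was not tested. *SMPDL3A* had r between -0.36 and 0.17 with the 5 marker sums, and -0.22 with the fibroblast sum.

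**Figure D4:**
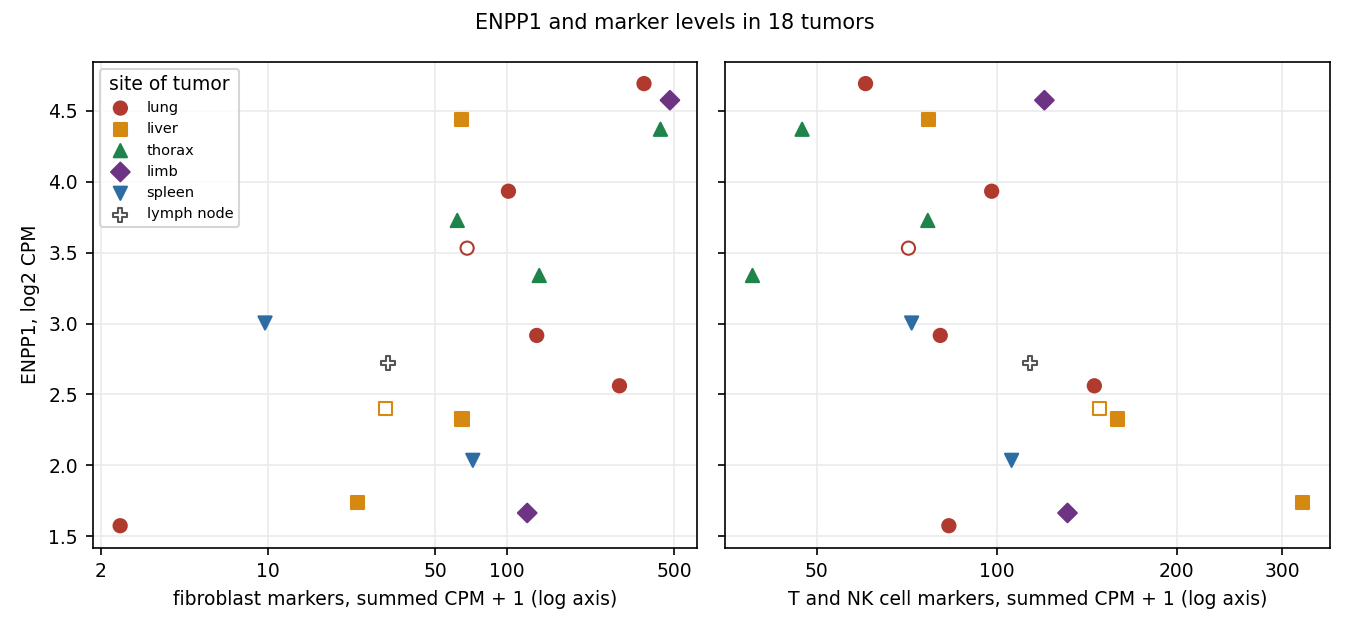
*ENPP1* in log2 CPM against the summed CPM of fibroblast markers (left) and of T and NK cell markers (right) in the 18 tumors, plus 1 and on log axes; symbols give the site of the tumor and open symbols are HHS tumors. HS48 is at the far left of the fibroblast panel with the lowest *ENPP1* level.

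The genes around cGAMP signalling were compared between all tumors and the 5 controls from lists chosen with earlier results of these data known. With an adjusted p under 0.0005 and a log2FC beyond 1.5 in either direction, 539 of 19430 genes (2.77%) were called, 168 of them (0.865%) higher in tumors. At an adjusted p under 0.05, 3457 genes (17.8%) were called, 7.45% of all genes tested being higher and 10.3% lower. Of 16 genes of STING and interferon signalling, 0 were called at the stricter cutoff, and 1 rose at 0.05: *ETV7*, an interferon-induced transcription factor, with a log2FC of 1.61 ± 0.48 (adjusted p = 0.015, edgeR). It lost that call against the spleen and lung controls, where its log2FC was 2.21 and its adjusted p 0.072, and without the lung control, where its log2FC of 1.45 was under the fold cutoff. *IFNG* and *TNF* had log2FCs of 1.56 ± 1.09 and 1.44 ± 0.80, and the kinase *TBK1* one of -0.62 ± 0.23; none was called. The list median was 0.51 against -0.01 over all genes tested, with 10 of 16 above 0, as were 49.8% of all genes tested.

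Of 12 lysosomal genes 11 could be tested. *FUCA2*, a fucosidase, rose with a log2FC of 2.20 ± 0.31 (adjusted p = 4.1e-05, edgeR) and was the 1 gene called at the stricter cutoff; against the spleen and lung controls it was 1.80 ± 0.45 (adjusted p = 0.014, edgeR) and no longer passed it. *CD63*, a tetraspanin of late endosomes and lysosomes, rose by 2.21 ± 0.51 at the 0.05 cutoff (adjusted p = 0.0029, edgeR), and had an adjusted p of 0.15 against spleen and lung. *LAPTM4B* had a log2FC of -2.82 ± 1.12 and was not called. The list median was 1.18 against -0.01 over all genes tested, with 8 of 11 above 0, as were 49.8% of all genes tested. In the cell lines 0 of 10 lysosomal genes kept after the filter were above DC3F9 on average, with a median difference of -1.57 log2 units against 0.08 over 18121 genes. T and NK cell markers summed to 900 to 1266 CPM in blood and to 38.0 to 323 CPM in the tumors, and all 5 fell in the tumors at the 0.05 cutoff, where 10.3% of genes fell; their part in these calls was not tested.

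**Figure D5:**
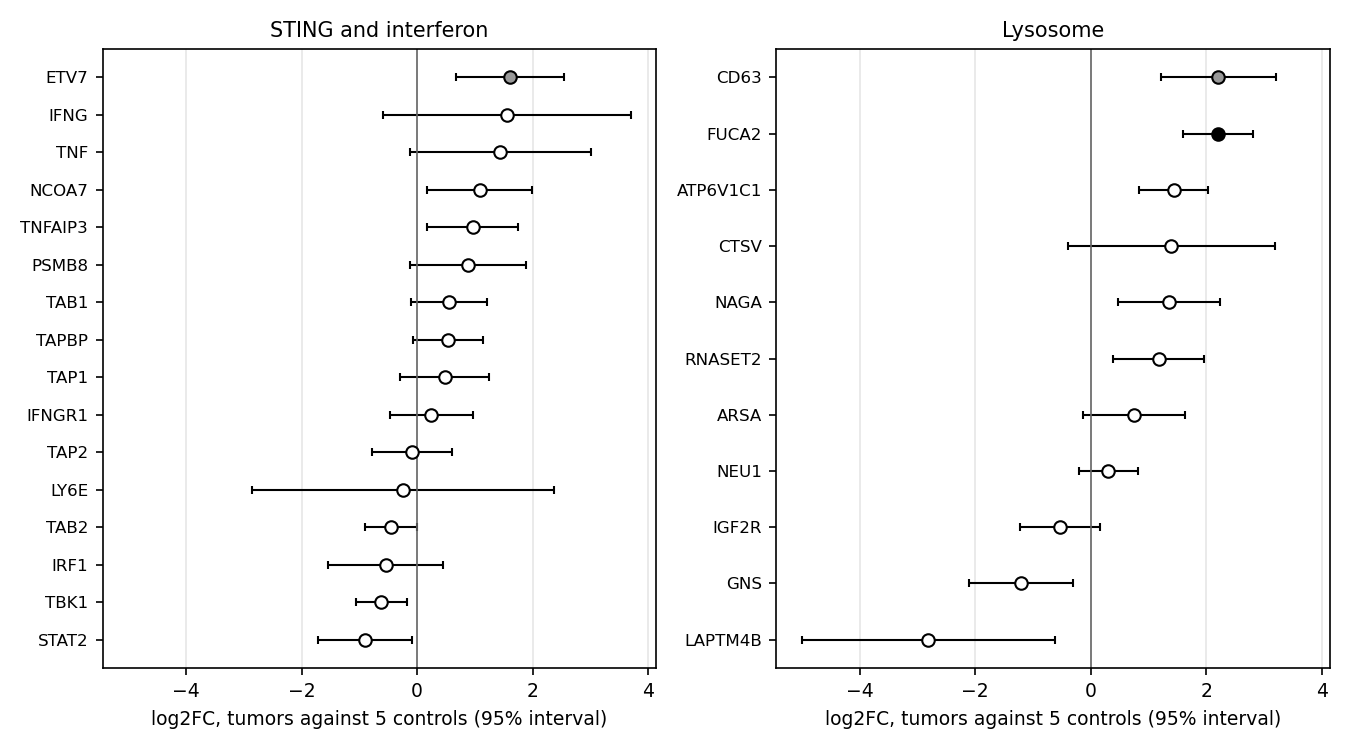
Log2FC of all tumors against the 5 controls with its approximate 95% interval (edgeR) for 16 genes of STING and interferon signalling (left) and 11 lysosomal genes (right). The black point, *FUCA2*, passed both cutoffs, grey points (*ETV7*, *CD63*) passed the 0.05 cutoff and open points passed neither.

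The 2 named paralogs of *ENPP1* were compared in the same way. *ENPP2*, which encodes autotaxin, had a log2FC of -0.64 ± 0.88 in tumors against the 5 controls, and *ENPP3*, which encodes a membrane enzyme of basophils and mast cells, one of 0.16 ± 0.93; neither was called, and neither was called among the tumors. *ENPP2* averaged 2.25 log2 CPM in blood, 8.47 in spleen and 7.23 in lung, and 5.18 ± 1.64 in the tumors (SD, n = 18).

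Neighbouring genes were taken from the gene order of the RefSeq assembly UU_Cfam_GSD_1.0, which is not the build of the counts, so no positions are given. Of the 6 listed neighbours of *SMPDL3A* (*GJA1*, *HSF2*, *SERINC1*, *FABP7*, *CLVS2*, *TRDN*), 5 could be tested in tumors against controls and 0 were called at 0.0005. *FABP7*, the gene next to it, encodes a fatty acid-binding protein and rose at the 0.05 cutoff (log2FC 3.58 ± 1.23, adjusted p = 0.033, edgeR), while *SERINC1* and *GJA1* had log2FCs of -0.96 ± 0.41 and -0.99 ± 1.00. Of the next 4 genes downstream (*NKAIN2*, *RNF217*, *TPD52L1*, *HDDC2*; added after the counts had been opened), 3 could be tested and 0 were called at 0.0005, while *RNF217*, a ring finger protein, rose at 0.05 (2.39 ± 0.66, adjusted p = 0.010, edgeR). *ENPP1* is the first gene of its chromosome in that assembly. Of the 4 named genes that follow it (*PARD6G*, *ADNP2*, *TXNL4A*, *CTDP1*; chosen after the counts had been opened) 0 were called at either cutoff. Of the 8 genes near *ENPP1* in human order 7 could be tested; *MOXD1* rose at 0.05 (6.37 ± 2.29, adjusted p = 0.041, edgeR), and the others were not called. Over all genes tested in tumors against the 5 controls, 2.77% were called at 0.0005. At 0.05, 7.45% rose and 10.3% fell, and nothing is read from calls in lists this short. Among the groups of tumors, 0 genes of these lists were called in any of the 4 comparisons.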

How the data were processed

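RNA of 24 tumor and control samples (ribosomal and globin RNA depleted) and of 4 cell cultures (mRNA kit) had been sequenced. Per the submitters' processing notes and the paper's methods, the authors used cutadapt 3.7 for trimming, STAR 2.7.10a for alignment to CanFam3.1 and HTSeq 2.0.0 for counting, and deposited raw counts in 2 tables, without normalization. The annotation release and strand option are not given in the sources used here, so overlapping, antisense or near-identical genes may share reads. 0 columns of other samples were present.

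Samples were grouped by their labels. Log2FCs came from R 4.3.3, edgeR 4.0.16 (with limma 3.58.1), by the quasi-likelihood test after TMM and filterByExpr. Genes with an adjusted p (Benjamini-Hochberg, over all genes tested) under 0.05, or 0.0005 for tumors against controls, and a log2FC beyond 1.5 in either direction were called. DESeq2 1.42.0 was the alternative test. Permutation tests used scipy 1.17.1 and numpy 2.4.6, and tables and plots pandas 2.3.3 and matplotlib 3.10.9, under Python 3.11.15. TMM factors for log2 CPM were set over all libraries of a table. Correlation p-values used 100000 permutations, or all 720 orders for 6 tumors. The fits were tested on simulated data.

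The 2 genes and the lists were chosen with earlier results of these data known. Named were both genes, list genes called in a comparison or among the 3 largest absolute log2FCs of their list, and the 5 genes with the highest r to each; *TBK1* and the ranges of markers were added for their role. Symbols were available for 1117 identifiers, so cGAS and STING themselves were not analysed here. The smallest level 3 counts can show was 0.0166 to 0.0366 CPM. The intervals of ratios to DC3F9 cover counting error only, as reads carry no molecular identifiers; edgeR's intervals come from the spread between samples. Each tumor is taken as the sample of a separate dog, since the paper reports 18 affected dogs. P-values measure the spread between these samples. Alternatives were other size factors, prior counts, filters, sets of controls or tumors, and leaving out libraries in turn.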

Additional observations from a re-analysis of the deposited data

Results flagged for a closer look

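The liver control held 82.1 CPM of *ENPP1*, although it enters none of the tested comparisons and was set beside the tumors only as a description. This is above every other control (28.4 CPM in spleen, 13.7 CPM in lung and 0 to 0.030 CPM in blood) and above all 18 tumors, including the 4 taken from the liver (3.61 to 18.5 CPM). It is 1 library, with the lowest TMM factor of the series, so the value has no replicate. On log2 CPM, no tumor or control of either gene stood out within its group of 4 to 6 libraries by Dixon's criterion. By chance this criterion flags about 1 in 20 groups. HS48 came closest, with a gap of 0.603 of the range of *SMPDL3A* in lung tumors against a critical value of 0.625. The outcome holds for the log2 scale only, as the criterion was not applied to CPM. There HS48 held 5891 CPM of *SMPDL3A* and the next lung tumor, HS35, 1345 CPM.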

How the results depend on the processing

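No paired analysis was possible because the labels link no sample of a group to a sample of the same dog in another.

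Of 128 values recomputed under alternatives, 101 kept their direction and their side of the threshold (or moved by less than the spread). The *SMPDL3A* difference between tumors and controls was 5.06 to 5.65 log2 units throughout. That of *ENPP1*, 4.64, became 3.08 with all 6 controls, 8.33 with blood alone and -0.88 with spleen and lung, and 3.48 to 6.18 without 1 control (lowest without blood control 1, highest without spleen control 1; 5.87 without the lung control). Log2FCs among tumors changed sign for *SMPDL3A* without HHS tumor replicate 2, HS46 (-1.69; 0.67 without HHS tumor replicate 3, HS53), in thoracic against lung tumors without HS14 (-0.27) or HS37 (-0.10; range to 0.50 without HS4) and in limb against organ tumors without HS39 (0.66; -1.98 without HS34), and for *ENPP1* without HS34 (-1.61; 1.35 without HS39). These values rest on 2 or 3 tumors. In lung against liver tumors *ENPP1*, 0.39, was 0.09 (without HS50) to 1.35 (without HS36), with 0.17 without HS33 and 0.21 without HS46, and *SMPDL3A*, -0.71, was -1.01 (without HS33) to -0.34 (without HS46) and -0.13 without the HHS tumors. *ENPP1* in HHS against HS was -0.94 without HS53 and -0.34 without HS46, and in thoracic against lung tumors 0.02 without HS4 and 0.58 without HS14. The correlation of both genes, -0.03, was 0.037 in the 15 HS tumors, 0.046 without the liver tumors and -0.90 in the lung tumors; the cause was not tested.

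DESeq2 called 1 gene in HHS against HS, 99 in lung against liver, 130 in thoracic against lung and 234 in limb against organ tumors, where edgeR called 0, 0, 1 and 15. Without a filter on low counts edgeR called 4 in HHS against HS. With relative log expression size factors it called 8 in limb against organ tumors, and 7 to 26 without 1 limb tumor (7 without HS39, 26 without HS34); these last fits hold a single limb library, assumed to vary like the organ tumors. The 1 call in thoracic against lung tumors fell to 0 without any of the 3 thoracic tumors. *SMPDL3A* and *ENPP1* were called under none of these, but DESeq2 gave no p-value for *SMPDL3A* in thoracic against lung tumors. Of the pathway genes, edgeR called 1 of 29 in tumors against the 5 controls, where it called 539 of all 19430 genes. DESeq2 called 3 of 29, and 1721 of all 19430 genes. Against the spleen and lung controls edgeR called 0 of 30, and 222 of all 21533 genes. Counting error limits only *ENPP1* in blood, BD and DC3F9, at 0 to 4 counts each.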
